A study of Mus musculus with 6 samples.

Results

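In inguinal white adipose tissue (IngWAT), 37 protein-coding genes stayed under 1 cpm (1 read count in 1000000) in all 3 control pools and reached 1 cpm or more in all 3 pools from mice without Hdac3 in fat. They were taken from 21547 protein-coding genes among the 46517 genes of the deposited count tables. Here cpm is relative to the sum of counts on all genes outside the mitochondrial genome in that pool. The levels of both genotypes chose these genes, so their fold changes and calls between genotypes are given as a description and support nothing. Among the 8062 protein-coding genes under 1 cpm in every control pool, 39 met the rule (0.484%). The natural killer cell genes Klrb1f and Cd160 were then left out as genes of B and T cell lists, which left 37. Elovl3 and Slc7a11, also left out by name, had up to 5.86 and 1.16 cpm in a control pool and did not meet the rule. In the opposite direction, 446 of the 8848 protein-coding genes under 1 cpm in every pool without Hdac3 were at 1 cpm or more in every control pool (5.04%). On the scale of the rule, the median log2 fold change of pools without Hdac3 over controls was -0.52 across all tested genes. The 2 shares depend on that scale and are not read against each other.

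RNA from IngWAT of C57Bl6 mice aged 5 to 9 months, fed chow and kept in standard housing, was pooled from 2 or 3 mice per sample and sequenced after poly(A) selection. Controls carried floxed Hdac3 alleles, and H3atKO mice additionally carried Adipoq-cre, from the line B6:FVB-Tg(Adipoq-cre)1Evdr/J. In that line the promoter of Adipoq drives Cre in adipocytes, so other cells of the tissue keep Hdac3. Each genotype had 3 pools, and a p-value measures the spread between these pools, each of which averages over its mice. Hdac3 itself had 3139, 3339 and 2709 counts in the floxed pools and 666, 413 and 204 in the H3atKO pools. Its log2 fold change was -1.83 (SE 0.32, adjusted p = 0.0213, limma voom).

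HDAC3 is the catalytic subunit of the NCoR and SMRT corepressor complexes. These complexes are recruited to chromatin by nuclear receptors and other transcription factors, and HDAC3 removes acetyl groups from histone tails there. Genes held at a low level by such complexes can be transcribed more when the enzyme is missing, and HDAC3 is studied in fat for its part in lipid metabolism and thermogenesis.

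Counts outside the mitochondrial genome ran from 26347776 to 32766423 in the floxed pools and from 15444007 to 19297782 in the H3atKO pools, so that 1 cpm stood for 15.4 to 32.8 reads. A floor of 3 counts lay at 0.0916 to 0.194 cpm and covers counting error only, since PCR copies were not marked. The mitochondrial genome took 6.92 to 12.9% of the gene counts in the floxed and 26.9 to 35.3% in H3atKO pools, and alignments with several places, which are counted on no gene, made up 28.3 to 35.2% and 43.8 to 45.5% of all counted and tallied alignments. The adipocyte marker Adipoq had 78815 to 120586 counts in the floxed and 30736 to 56408 in H3atKO pools, and was not called (adjusted p = 0.615, limma voom). Every other gene of the adipocyte list was read in every pool. Of its 14 tested genes 1 was called higher, Lpl, and 1 lower, Cfd, where 9.42% and 7.07% of all tested genes were. The median log2 fold change of the list was -1.07, against -0.09 over all tested genes. In bulk tissue, fewer cells of a type and less RNA per cell cannot be told apart.

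The promoters of 5 of these genes are shown as examples. Lpar3, Hgd, Scd3 and Ankrd22 had mean H3atKO levels over 5 cpm, the Kcnj16 promoter held more than 1 match to the nuclear receptor element AGGTCA, and the RefSeq start of each lay close to its start in GENCODE. Each line gives the 250 bases before the start on the gene's own strand, from RefSeq on GRCm38.p6. They lie at chr3:146220711-146220960 (Lpar3, plus strand), chr16:37579903-37580152 (Hgd, plus strand), chr11:110967783-110968032 (Kcnj16, plus strand), chr19:44203038-44203287 (Scd3, plus strand) and chr19:34166042-34166291 (Ankrd22, minus strand). Capitals mark 4 motifs, read on either strand. The GC box is GGGCGG. The letters of the TATA box are here TATAAA, counted wherever they lie in the window. The element bound by single nuclear receptors is AGGTCA, and the last motif is CCAAT, which the factor NF-Y binds.
Lpar3: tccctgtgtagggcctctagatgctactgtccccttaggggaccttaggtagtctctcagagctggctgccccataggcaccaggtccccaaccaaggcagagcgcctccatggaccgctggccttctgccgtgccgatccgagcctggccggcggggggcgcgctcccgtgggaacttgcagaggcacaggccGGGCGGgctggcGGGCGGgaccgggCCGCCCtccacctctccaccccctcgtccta
Hgd: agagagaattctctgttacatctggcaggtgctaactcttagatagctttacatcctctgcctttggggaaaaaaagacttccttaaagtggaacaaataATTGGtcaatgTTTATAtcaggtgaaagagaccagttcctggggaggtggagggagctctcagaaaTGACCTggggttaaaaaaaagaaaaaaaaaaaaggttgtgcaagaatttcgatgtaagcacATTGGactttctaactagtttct
Kcnj16: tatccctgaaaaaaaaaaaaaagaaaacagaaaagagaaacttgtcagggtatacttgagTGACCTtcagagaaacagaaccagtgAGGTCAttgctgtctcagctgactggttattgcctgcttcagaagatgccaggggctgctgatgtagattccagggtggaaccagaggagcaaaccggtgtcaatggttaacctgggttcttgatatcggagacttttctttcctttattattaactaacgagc
Scd3: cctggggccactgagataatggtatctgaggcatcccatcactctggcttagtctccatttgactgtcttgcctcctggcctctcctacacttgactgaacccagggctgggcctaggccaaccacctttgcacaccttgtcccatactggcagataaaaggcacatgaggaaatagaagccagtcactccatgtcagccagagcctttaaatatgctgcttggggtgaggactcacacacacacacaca
Ankrd22: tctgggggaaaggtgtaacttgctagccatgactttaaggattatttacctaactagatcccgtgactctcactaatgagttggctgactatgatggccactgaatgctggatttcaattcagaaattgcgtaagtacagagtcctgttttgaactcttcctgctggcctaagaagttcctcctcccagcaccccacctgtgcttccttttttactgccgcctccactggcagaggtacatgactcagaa

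The 5 promoters differed in composition. The Lpar3 promoter held 17 CpG dinucleotides at 69.6% GC and 3 GC boxes. The Hgd promoter held 1 CpG at 38.8% GC, with a match to AGGTCA, a match to TATAAA more than 100 bases before the start, and 2 to CCAAT, and the Scd3 promoter held no CpG. Neither Scd3 nor Ankrd22 held any of the 10 motifs searched.

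A RefSeq promoter was found for 33 of the 37 genes, and 17 of them shared the GENCODE start to the base. Those of Aadac, Acoxl, Ofcc1 and Slc26a3 lay more than 1000 bases from it, so any matches there are not at the GENCODE start. Their median CpG number was 5, against 6 over 27025 promoters of the same length. The letters CCAAT were found in 15 of 33 (45.5%, against 34.5% of all promoters) and a GC box in 11 (33.3% against 33.0%). The nuclear receptor element AGGTCA was found in 3, those of Hgd, Kcnj16 and Slc26a3 (9.09% against 13.8%), and TATAAA in 2, those of Hgd and Slc26a3 (6.06% against 13.0%). The E-box CACGTG was found in 2 (6.06% against 6.04%), the antioxidant response core TGACNNNGC in 3 (9.09% against 10.1%) and the ATF4 composite element TGATGNAA in 1, that of Il12b (3.03% against 3.53%). No window held the cAMP response element TGACGTCA, the longer element of Rev-erb and ROR, or 2 nuclear receptor elements set 1 base apart, which were in 1.6%, 0.511% and 0.0370% of all promoters. These shares describe letters in a short window and were not tested.

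**Figure D1:**
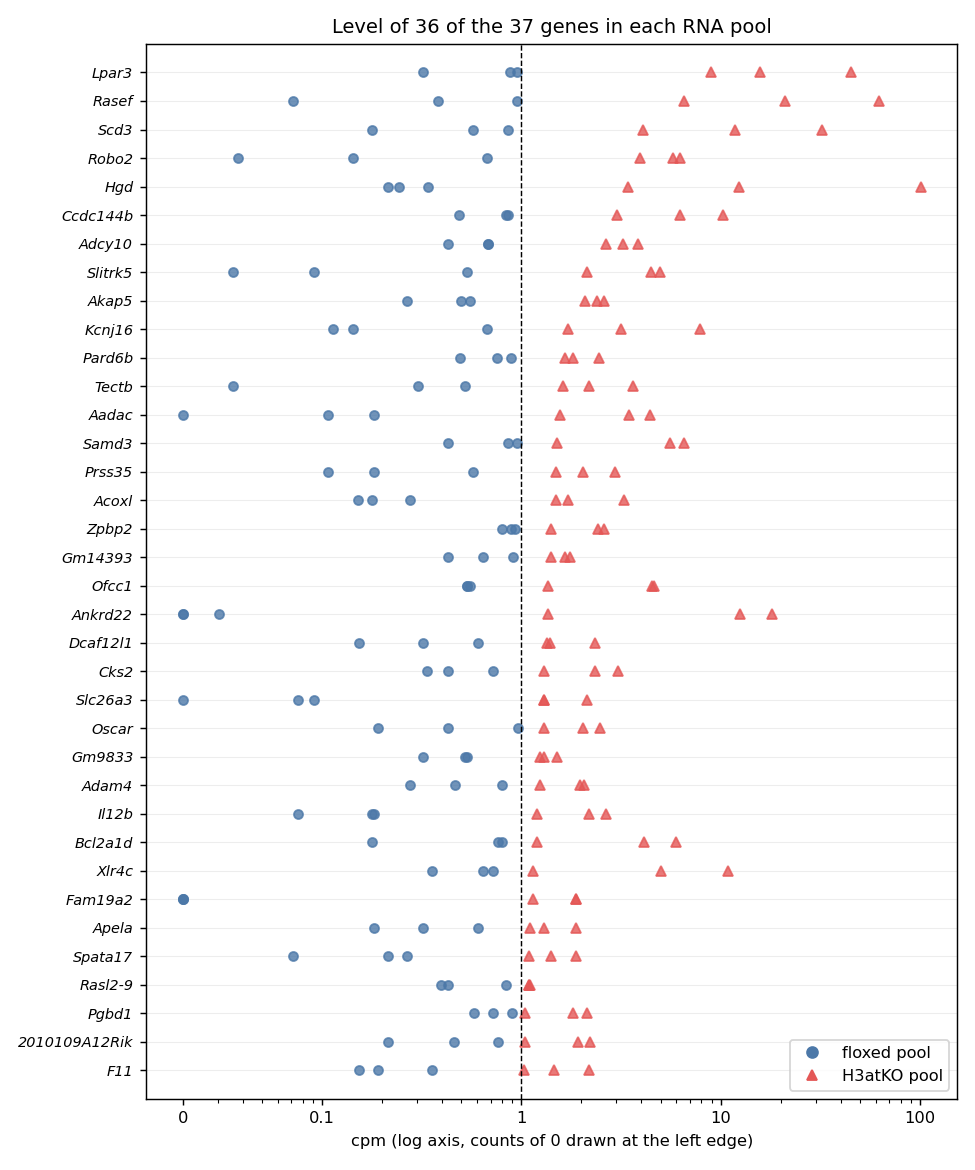
Level of 36 of the 37 genes (rows, ordered by their lowest H3atKO pool) in cpm on a log axis, with counts of 0 drawn at the left edge. Circles are the 3 floxed pools and triangles the 3 H3atKO pools, and the dashed line is the limit of 1 cpm that chose the genes. Most triangles lie close to the limit, and the upper rows from Lpar3 to Ccdc144b lie at 3 cpm or more in every H3atKO pool.

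Most of these genes crossed the limit at a low level. In H3atKO the mean level had a median of 2.23 cpm and ran from 1.09 cpm to 38.8 cpm, with 8 genes over 5 cpm and 14 under 2 cpm. The lowest H3atKO pool was between 1 and 2 cpm for 28 genes and at 2 cpm or more for 9. The genes were not silent in floxed tissue, where 36 of 37 had at least 1 read. Only Fam19a2 had no read in any floxed pool, and 4 genes had none in at least 1 floxed pool. The ratio of the mean cpm of H3atKO to floxed pools had a median of 7.10 over the 36 genes read in floxed, and 7.53 with Fam19a2 at its lower bound. It was over 10 for 12 genes, between 3 and 10 for 18 and under 3 for 6.

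Added up, the 37 genes reached 16.4, 12.5 and 17.6 cpm in the floxed pools and 311, 173 and 126 cpm in the H3atKO pools. Per kilobase of exon, mean H3atKO levels ran from 0.247 cpm for Slc26a3 to 14.8 cpm for Hgd, followed by Lpar3 at 9.45, Rasef at 5.23 and Scd3 at 4.50 cpm per kilobase. The spread of these 4 genes between pools was as large as the steps between them, so that their order is not resolved.

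The genes stood close to both edges of the rule. Their lowest H3atKO pool was under 1.2 cpm for 10 genes, and their highest floxed pool over 0.8 cpm for 11. Just inside were F11 at 1.04 cpm in its lowest H3atKO pool, with Pgbd1 and 2010109A12Rik also at 1.04, and Oscar at 0.965, Samd3 at 0.949 and Lpar3 at 0.946 cpm in their highest floxed pool. Just outside were the guanylyl cyclase Gucy2e at 0.985, Fam186a at 0.971 and Cyp4a10 at 0.907 cpm in their lowest H3atKO pool, and Ccl28, Gucy1a2 and Gm9774, each at 1.02 cpm in their highest floxed pool. Cyp4a10, a fatty acid omega-hydroxylase, had 9, 4 and 7 counts in the floxed and 227, 22 and 14 in H3atKO pools, and missed the limit in 1 pool.

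Enzymes of lipid and amino acid metabolism were among the genes with the largest differences. Scd3 (chr19:44203269-44244016, plus strand) encodes a stearoyl-CoA desaturase, which puts a double bond into saturated fatty acyl chains. It was at 0.855, 0.179 and 0.569 cpm in the floxed pools and at 32.1, 11.8 and 4.08 cpm in the H3atKO pools. Its lowest H3atKO pool was 4.77 times its highest floxed pool, where the rule itself keeps the groups of pools apart. The means were 0.534 ± 0.339 and 16.0 ± 14.5 cpm (SD, n = 3 each), and the fitted log2 fold change was 5.14 (SE 1.04). Of its transcript's 50-base windows, 6.66% also occur in other genes, Scd1 and Scd2 among them.

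Hgd (chr16:37580153-37632020, plus strand) encodes homogentisate dioxygenase of tyrosine breakdown, an enzyme best known from liver. It was at 0.244, 0.214 and 0.342 cpm in the floxed pools and at 101, 12.3 and 3.43 cpm in the H3atKO pools. H3atKO pool 1 was thus 29.3 times pool 3, the widest spread of the 37 genes. Its means were 0.267 ± 0.0665 and 38.8 ± 53.8 cpm (SD, n = 3 each), and its log2 fold change was 6.46 with an SE of 1.85. Hgd is also the one gene that stayed under 0.5 cpm in every floxed pool and at 2 cpm or more in every H3atKO pool, since the other genes that reached 2 cpm everywhere had a floxed pool at 0.5 cpm or more.

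Aadac, an endoplasmic reticulum esterase that cleaves acyl groups, was at 0.183, 0.107 and 0 cpm in floxed and at 4.40, 3.48 and 1.55 cpm in H3atKO pools. Acoxl, a relative of the peroxisomal acyl-CoA oxidases, was at 0.275, 0.179 and 0.152 cpm in floxed and at 1.71, 3.27 and 1.49 cpm in H3atKO pools. The ratios of the means were 32.5 for Aadac and 10.7 for Acoxl, and in both the floxed pools stayed at or under 0.275 cpm. Of the 16 genes of the liver list 6 were tested, and 1 was called lower, Alb, which had 3994, 3888 and 726 counts in the floxed and 34, 16 and 6 in H3atKO pools. The summed level of the list was 335 to 1414 cpm in floxed and 31.7 to 174 cpm in H3atKO pools, most of it from Hp, which was not called (adjusted p = 0.0722, limma voom). Genes of the list too low to be tested went both ways. Tat had 0, 1 and 2 counts in the floxed and 12, 0 and 2 in H3atKO pools. Fga had 0 counts in all floxed pools and 11, 0 and 0 in H3atKO pools, and Apoa1 21, 5 and 2 against 0, 0 and 0.

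**Figure D2:**
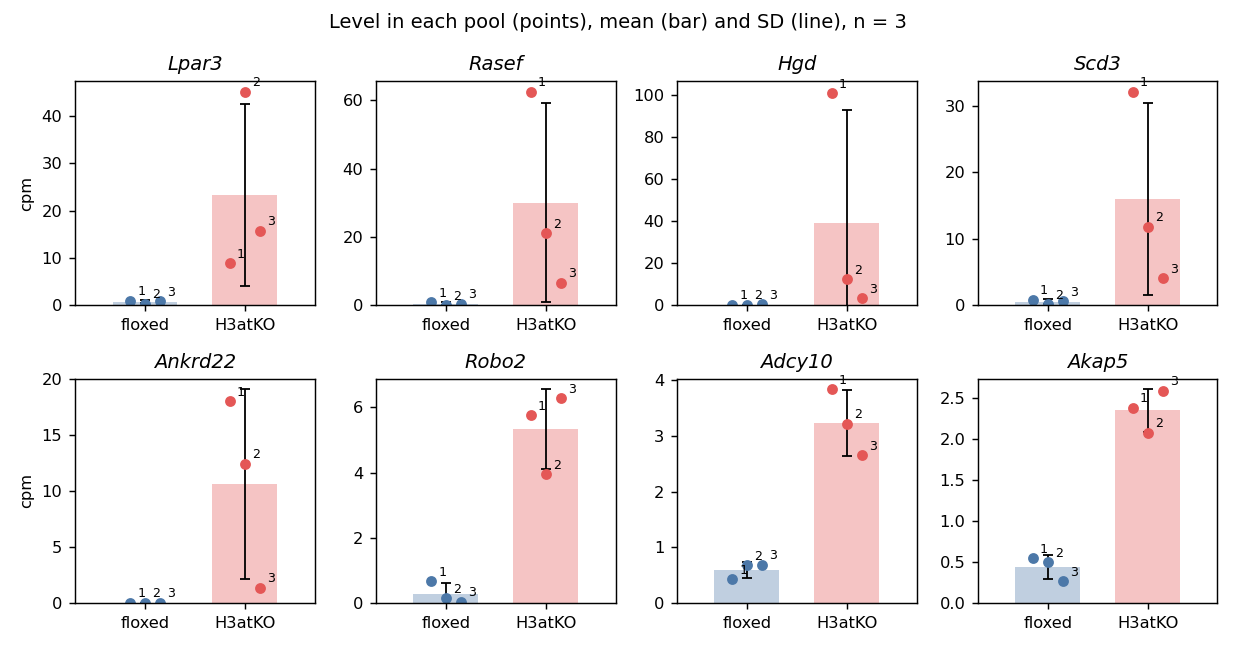
Level in cpm of 8 of the genes in each pool (points, numbered by replicate), with the mean (bar) and SD (line, drawn down to 0 where it passes below) of 3 pools per genotype. Hgd, Rasef, Scd3 and Ankrd22 are highest in H3atKO pool 1, Lpar3 in pool 2, and Robo2, Adcy10 and Akap5 vary less between pools.

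Genes of receptors and intracellular signalling held some of the highest levels. Lpar3 (chr3:146220963-146286186, plus strand) encodes a G protein-coupled receptor for lysophosphatidic acid. It was at 0.946, 0.322 and 0.873 cpm in the floxed pools and at 8.91, 45.2 and 15.8 cpm in the H3atKO pools. It was the only one of the 37 genes whose H3atKO pools ran in the order 2, 3, 1, and even its lowest H3atKO pool was 9.42 times its highest floxed pool. The means were 0.714 ± 0.341 and 23.3 ± 19.2 cpm (SD, n = 3 each), and the fitted log2 fold change was 5.18 (SE 1.00).

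Rasef (chr4:73714579-73790994, minus strand), a Rab-type GTPase with calcium-binding EF hands, was at 0.946, 0.0715 and 0.380 cpm in floxed and at 62.5, 21.1 and 6.54 cpm in H3atKO pools. Its H3atKO pools spread 9.56 times and its log2 fold change was 6.49 (SE 1.37). The soluble adenylyl cyclase gene Adcy10, whose product makes cAMP in response to bicarbonate, was at 0.427, 0.679 and 0.683 cpm in floxed and at 3.83, 3.22 and 2.65 cpm in H3atKO pools. Adcy10 was thus 5.43 times higher on average with a narrow spread, its H3atKO pools differing 1.44 times. Akap5, an anchor that holds protein kinase A near its targets, was similar: 0.549, 0.5 and 0.266 cpm in floxed and 2.38, 2.08 and 2.59 cpm in H3atKO pools.

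Genes best known from neurons were also present. Robo2 (chr16:73891839-74411825, minus strand), a receptor for the axon guidance protein Slit, was at 0.671, 0.143 and 0.0380 cpm in floxed and at 5.75, 3.95 and 6.28 cpm in H3atKO pools. Slitrk5, a synaptic adhesion protein, was at 0.0916, 0.0357 and 0.531 cpm in floxed and at 4.46, 4.99 and 2.14 cpm in H3atKO pools. The ratios of their means were 18.8 and 17.6. The marker list of neurons and Schwann cells summed to 374 to 641 cpm in floxed and to a lower 186 to 239 cpm in H3atKO pools. The largest part of that sum was Scn7a, at 183 to 358 cpm in floxed and at 77.8 to 125 cpm in H3atKO pools. Of the 15 tested genes of the list, 0 were called higher and 2 lower by limma (0 and 7 at an unadjusted p under 0.05), and 0 and 7 by edgeR.

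Among channels and transporters, Kcnj16, a subunit of inwardly rectifying potassium channels, was at 0.671, 0.143 and 0.114 cpm in floxed and at 3.16, 1.71 and 7.90 cpm in H3atKO pools. Slc26a3, an exchanger of chloride for bicarbonate known from the gut, had 3, 0 and 2 counts in the floxed and 25, 41 and 20 counts in H3atKO pools. Its floxed pools lay at or under the floor of 3 counts, and its lowest H3atKO pool was 14.1 times its highest floxed pool in cpm.

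Secreted products formed a group at low levels. Fam19a2, now called Tafa2, encodes a small secreted protein of the brain that resembles chemokines, and had 0 counts in all floxed pools and 22, 36 and 29 counts in H3atKO pools. Against a floor of 3 counts over the floxed group it was at least 46.8-fold higher in H3atKO. F11, the precursor of coagulation factor XI made in liver, had 5, 10 and 5 counts in the floxed and 28, 42 and 16 in H3atKO pools. These genes were low in both genotypes, and F11 was nearest of all 37 to the limit in its lowest H3atKO pool. Apela, a peptide ligand of the apelin receptor, had 6, 9 and 16 counts in the floxed and 25, 36 and 17 in H3atKO pools. Prss35, a protein of the serine protease family, was at 0.107 to 0.569 cpm in floxed and at 1.49 to 2.95 cpm in H3atKO pools, and Tectb, beta-tectorin of the inner ear, at 0.0357 to 0.519 and at 1.62 to 3.63 cpm.

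Several genes are known from immune cells. Il12b encodes the subunit shared by interleukins IL-12 and IL-23, and had 6, 5 and 2 counts in the floxed and 42, 23 and 41 in H3atKO pools. Oscar, an activating receptor of myeloid cells, had 14, 27 and 5 counts in the floxed and 48, 39 and 20 in H3atKO pools. For Il12b the lowest H3atKO pool was 6.53 times the highest floxed pool, and for Oscar 1.34 times. The macrophage and dendritic cell list without Lpl, which adipocytes also express, summed to 877 to 4799 cpm in floxed and 590 to 1279 cpm in H3atKO pools. Of its defining genes, Adgre1 had 673, 726 and 4943 counts in the floxed and 567, 479 and 569 in H3atKO pools. Adgre1 was not called by limma (log2 fold change -0.21, adjusted p = 0.853). Of the 28 tested genes of the list 1 was called higher and 1 lower, where 9.42% and 7.07% of all tested genes were. The higher one was Xcr1, with 37, 13 and 40 counts in the floxed and 132, 49 and 131 in H3atKO pools. The lower one was Csf1r, with a log2 fold change of -2.35.

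Of the 37 genes 16 had their lowest H3atKO level in pool 2, 16 in pool 3 and 5 in pool 1. Samd3, Bcl2a1d and Xlr4c were among those lowest in pool 2. Samd3 was at 6.58, 1.51 and 5.57 cpm in the H3atKO pools, Bcl2a1d, an inhibitor of apoptosis, at 4.15, 1.2 and 5.96 cpm, and Xlr4c, an X-linked gene of lymphocytes, at 5.03, 1.14 and 10.9 cpm. In floxed pools they reached at most 0.949, 0.797 and 0.721 cpm. The list of B and T cell genes was likewise lowest in H3atKO pool 2 among the H3atKO pools: of 223 genes, 213 were in the tables, 3 at 0 in all pools, and their sum was 2533, 1262 and 2219 cpm in floxed and 7313, 1623 and 7957 cpm in H3atKO pools. The sums of the 2 genotypes overlapped. Other lists were also lowest in H3atKO pool 2, among them those of fatty acid synthesis and elongation, of the cell cycle, and of neutrophils and mast cells. Being lowest there is thus not particular to B and T cell genes. Of the 184 tested genes of the B and T cell list 16 were called higher by limma and 0 lower, with a median log2 fold change of 1.82. That count lies near the share of all tested genes called higher, 9.42%. The B cell marker Ms4a1 had 748, 25 and 35 counts in the floxed and 3478, 34 and 4913 in H3atKO pools, and the T cell marker Cd3e 260, 32 and 22 in the floxed and 194, 19 and 65 in H3atKO pools. The part of these cells in the levels of the 3 genes was not tested.

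Sperm and testis genes were also among the 37. Zpbp2, of the sperm acrosome, was at 0.885, 0.929 and 0.797 cpm in floxed and at 2.44, 1.40 and 2.59 cpm in H3atKO pools. Spata17, named for spermatogenesis, had 7, 2 and 7 counts in the floxed and 21, 27 and 29 in H3atKO pools. Adam4, a metalloprotease family gene, had 9, 13 and 21 counts in the floxed and 38, 24 and 32 in H3atKO pools. All of these were low, and Rasl2-9, a Ran-like gene with 14, 11 and 22 counts in the floxed and 21, 21 and 17 in H3atKO pools, had the smallest ratio of means of the 37, 1.98. The testis and germ line list summed to 11.9 to 13.5 cpm in floxed and 65.9 to 130 cpm in H3atKO pools, with 12 of 31 genes at 0 in all pools. Most of that sum was Sycp3, which had 309, 217 and 244 counts in the floxed and 1115, 2441 and 1339 in H3atKO pools. Of the defining germ cell genes, Ddx4 had 7, 12 and 14 counts in the floxed and 13, 14 and 14 in H3atKO pools. In cpm Ddx4 was at 0.214, 0.429 and 0.531 in the floxed and at 0.674, 0.727 and 0.907 in the shallower H3atKO pools. Dazl was at 0.0610 to 0.143 cpm in floxed and at 0.259 to 0.520 cpm in H3atKO pools. Piwil2 went the other way on average, at 0.671 to 1.93 cpm in floxed and at 0.130 to 1.40 cpm in H3atKO pools.

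Of the genes with other or little known roles, Ankrd22 (chr19:34121469-34166053, minus strand), a small ankyrin repeat protein, had 1, 0 and 0 counts in the floxed and 348, 240 and 21 counts in H3atKO pools. The ratio of the pooled levels was 982, with an exact 95% interval of 176 to 38868 that covers counting error only. Ccdc144b was at 0.488 to 0.858 cpm in floxed and at 3.01, 6.23 and 10.3 cpm in H3atKO pools. For Ccdc144b the lowest H3atKO pool was 3.50 times the highest floxed pool, whereas Ankrd22 lay under the floor of 3 counts in every floxed pool. Ofcc1 was at 0.531 to 0.549 cpm in floxed and at 4.61, 4.52 and 1.36 cpm in H3atKO pools. Pard6b, a cell polarity protein, was at 0.493 to 0.885 cpm in floxed and at 1.66 to 2.46 cpm in H3atKO pools. Cks2, which binds cyclin-dependent kinases, was at 0.336 to 0.721 cpm in floxed and at 1.3 to 3.06 cpm in H3atKO pools. The other 5 genes, Dcaf12l1, Pgbd1, 2010109A12Rik, Gm14393 and Gm9833, were at 0.153 to 0.911 cpm in floxed and at 1.04 to 2.33 cpm in H3atKO pools.

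For 7 of the 37 genes, more than 10% of the 50-base windows of the transcript also occur in another gene, and their counts are uncertain because reads with several places were given to no gene. These were Gm9833 (81.8%, with Myef2), Gm14393 (79.9%), Bcl2a1d (79.5%), Xlr4c (52.2%), Cks2 (29.7%), Apela (26.8%) and Adam4 (17.4%). Near copies were likewise lowest in H3atKO pool 2 among the H3atKO pools: Bcl2a1a had 19, 6 and 15 counts in the floxed and 82, 17 and 48 in H3atKO pools, and Xlr4b 62, 27 and 73 in floxed and 226, 31 and 343 in H3atKO pools. Adam4 also overlaps Cox16 on the same strand, and Xlr4c overlaps Xlr5a. For 23 of the genes no window was shared.

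**Figure D3:**
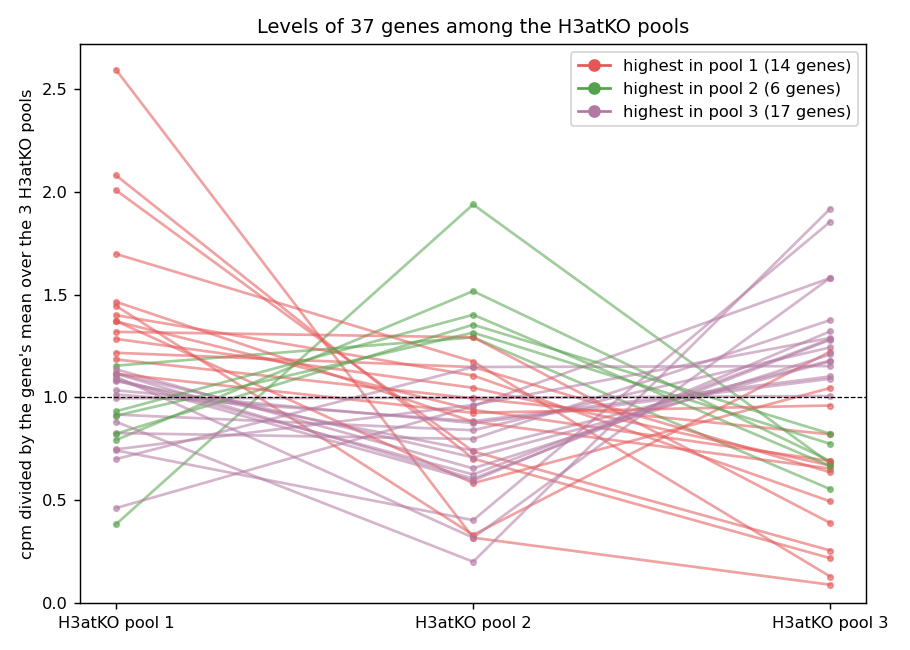
Level of each of the 37 genes in each H3atKO pool, divided by the gene's mean over the 3 H3atKO pools (dashed line at 1.0), 1 line per gene, coloured by the pool where it is highest. In 14 genes the highest pool is 1, in 6 it is 2 and in 17 it is 3, so the genes do not share 1 profile over the pools.

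The 37 genes did not rise together from pool to pool. The order of the H3atKO pools was 3, 1, 2 from high to low in 13 genes, among them Robo2, Kcnj16, Il12b, Bcl2a1d and Xlr4c, and 1, 2, 3 in 11 genes, among them Rasef, Scd3, Hgd, Aadac and Ankrd22. The highest H3atKO pool was a median of 2.11 times the lowest, over 3 times in 11 genes and under 1.5 times in 6. The thermogenic fat list, which holds none of the 37 genes, was summed at 10541, 6566 and 4714 cpm in H3atKO pools 1, 2 and 3, and at 3311, 2492 and 3049 cpm in the floxed pools. The lists of fatty acid oxidation and PPARA targets, of the integrated stress response and of glutathione and NRF2 targets had the same order of H3atKO pools. Every other order was that of 3 to 7 lists, and the list of fatty acid synthesis and elongation, which holds Scd3, ran 3, 1, 2. The stress response list summed to 2241 to 2617 cpm in floxed and to a lower 1756 to 2185 cpm in H3atKO pools. The NRF2 list summed to 2567 to 3068 cpm in floxed and to a lower 1096 to 2270 cpm in H3atKO pools. Its gene Gpx3 alone was at 857 to 1027 cpm in floxed and at 35.2 to 105 cpm in H3atKO pools. Of the 24 tested genes of the NRF2 list 4 were called higher and 3 lower by limma, with a median log2 fold change of 0.23. Over all tested genes 9.42% were called higher and 7.07% lower, so the lower sum does not describe most genes of the list. The part of the genes of the 4 lists in the order 1, 2, 3 in the levels of the 11 genes was not tested.

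In the fit across all tested genes (limma voom, TMM scaling, at least 1 cpm over all gene counts in at least 1 pool), 28 of the 36 tested members were called higher in H3atKO at an adjusted p under 0.05, where 9.42% of 14967 genes were. Since the members were chosen on this contrast, nothing is read from that share. Their median log2 fold change was 3.30, with a range of 1.55 to 8.61, and the median of all tested genes was -0.09. TMM scaling raises H3atKO over floxed by 0.43 on the log2 scale, and the median of all genes is -0.52 on the scale of the rule. Hgd, Bcl2a1d, Xlr4c, Pard6b, Gm14393, Zpbp2, 2010109A12Rik and Pgbd1 were not called, and Rasl2-9 was below the level filter of the test. With the replicate number as a block, 36 were called, where 24.8% of all genes were. With a correction on GC content 22 were called (5.55% of all genes), and with both 29 (13.1%). Without floxed replicate 1 or 2, or H3atKO replicate 1, 2 or 3, 1, 0, 3, 7 and 2 members were called by limma in that order, with 34 or 35 higher at an unadjusted p under 0.05, and over all tested genes 149, 1, 199, 395 and 87 were called higher. Without floxed replicate 3, 32 members and 2729 of all genes were called higher.

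The members had a median GC content of 46.9%, against 48.7% over all protein-coding genes, and 6 of 37 (16.2%) were over 50% GC, against 43.6%. In these pools a shift that follows GC content and the genotype cannot be told apart. The median exon length was 3052 bases, against 3530 bases. The genes lay on 16 chromosomes, and no member was next to another.

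**Figure D4:**
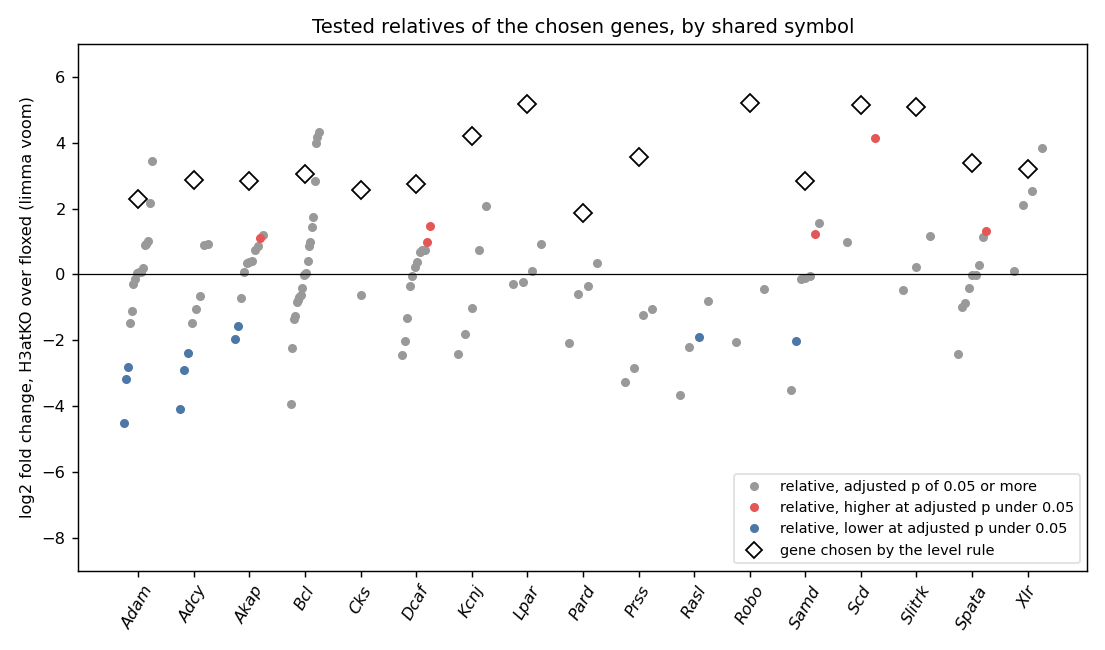
Log2 fold change of H3atKO over floxed (limma voom) for tested genes that share the letters of a member's symbol, by family. Circles are relatives, coloured where the adjusted p is under 0.05, and diamonds are the members, which were chosen on this contrast. In the Adcy family 3 relatives are lower, while the diamond of Adcy10 is above 0. In the Scd family Scd2 is higher and Scd1 is not called.

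Relatives of these genes, which the rule did not choose, showed no common direction. Of 219 protein-coding genes that share a symbol stem with a member in 18 families, 117 were tested, and 6 were called higher (5.13%) and 10 lower (8.55%), where 9.42% and 7.07% of all genes were. Their median log2 fold change was -0.05. With the replicate number as a block, 33 were called higher and 34 lower. Leaving out 1 pool gave between 0 (without floxed replicate 2 or H3atKO replicate 3, where 14 and 15 had an unadjusted p under 0.05) and 18 called higher (without floxed replicate 3), and between 0 and 32 called lower.

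In the stearoyl-CoA desaturase family, Scd2 had 1439, 1255 and 3555 counts in the floxed and 10914, 24530 and 12310 in H3atKO pools. It rose by 4.13 on the log2 scale (SE 0.52, adjusted p = 0.0106, limma voom). Scd1, the main desaturase of fat, had 843221 to 1398939 counts in the floxed and 980100 to 1241575 in H3atKO pools, with a log2 difference of 0.99 (SE 0.30, adjusted p = 0.0576), and Scd4 had 4 to 17 counts in any pool and was not tested. Scd3 and Scd4 thus both had few reads in floxed tissue, and Scd4 also had few in H3atKO tissue. Scd2 was read in floxed tissue at an intermediate level, and Scd1 was abundant in both genotypes.

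In the adenylyl cyclase family, the membrane-bound Adcy5 had 12929, 4446 and 1669 counts in the floxed and 178, 133 and 78 in H3atKO pools. It fell by 4.08 on the log2 scale (SE 0.87, adjusted p = 0.0310, limma voom). Adcy4 fell by 2.89 (adjusted p = 0.0465) and Adcy6 by 2.37 (adjusted p = 0.0465), while Adcy3 and Adcy7 had differences of 0.92 and 0.90 (adjusted p = 0.201 and 0.388). Adcy9, Adcy2 and Adcy1 had differences of -1.48, -1.05 and -0.66 and were not called either (adjusted p = 0.0512, 0.408 and 0.409, limma voom). Under the GC correction Adcy5 was at -1.91 and still called (adjusted p = 0.0227), the only one of the 10 lower relatives of all families that was, while Adcy4 at -1.82 and Adcy6 were not (adjusted p = 0.0700 and 0.115). The soluble Adcy10 was the one member of the family that met the rule.

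Of the other lysophosphatidic acid receptors, Lpar1 had 569, 537 and 1436 counts in the floxed and 335, 201 and 362 in H3atKO pools. Lpar6 had a log2 difference of 0.93 (SE 0.26, adjusted p = 0.0501, limma voom), and Lpar1, Lpar2 and Lpar4 had -0.28, -0.24 and 0.11. For the Slit receptors, Robo1 had a difference of -0.46 (adjusted p = 0.504) and Robo4, of endothelium, -2.06 (adjusted p = 0.0646). None of these relatives passed the test with limma, whereas Akap11, Dcaf10, Dcaf13, Samd8 and Spata5 were the other relatives called higher, by 1.00 to 1.46. The other lower ones were Adam3, Adam15, Adam33, Akap8l, Akap12, Rasl12 and Samd1, with log2 fold changes of -4.52 to -1.57. Under the GC correction, Akap8l, Samd1 and Dcaf13 changed sign.

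Pathways that hold a member moved in different ways, and the members are left out of the counts below. In the list of fatty acid synthesis and elongation (that of Scd3), 10 of 31 tested genes were called higher and 2 lower by limma, with a median log2 fold change of 0.98. Those higher included the elongase Elovl6 by 4.76 (adjusted p = 0.0148), malic enzyme Me1, which makes NADPH, by 3.93 (adjusted p = 0.00615), and fatty acid synthase Fasn by 2.41 (adjusted p = 0.0271), all by limma voom. The lower genes were Mlxipl, the transcription factor ChREBP, at -2.16 and Elovl1 at -1.81. With the GC correction 13 were higher and 0 lower (1 at an unadjusted p under 0.05), with the replicate block 15 and 6, and with library sizes alone 8 and 6.

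In the list of cAMP and adrenergic signalling (that of Adcy10), 7 of 44 were called higher and 6 lower, with a median of -0.70. The higher ones were the phosphodiesterases Pde1c, Pde3b and Pde4b, the protein kinase A subunits Prkar2b and Prkacb, and the transcription factors Creb1 and Crem. The lower ones were the 3 cyclases, the natriuretic peptide receptors Npr1 and Npr2, and the corticotropin receptor Mc2r. These counts depended on the scale, with 3 higher and 2 lower under the GC correction, where the median was 0.09, 10 and 15 with the replicate block, and 3 and 19 with library sizes alone.

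Among ion channels (the list of Kcnj16), 2 of 37 were called higher, the acetylcholine receptor subunit Chrna2 and the proton channel Otop1, and 0 lower by limma (8 at an unadjusted p under 0.05, and 5 adjusted by edgeR), with a median of -0.66. With the replicate block 4 were higher and 13 lower, and with library sizes alone 2 and 12. For Ras, Rab and cytoskeleton regulators (the list of Rasef), 0 of 29 were called higher by limma (2 at an unadjusted p under 0.05, and 2 adjusted by edgeR) and 2 lower, Tubb4a and Rab3d, while the replicate block gave 4 and 7 and library sizes alone 0 and 11. The thermogenic fat list, with none of the 37 genes, had 11 of 45 called higher and 0 lower (6 at an unadjusted p under 0.05, and 4 adjusted by edgeR), with a median of 0.70 that was -0.20 with library sizes alone, where 8 were higher and 8 lower. Over all tested genes 9.42% were called higher and 7.07% lower, with a median of -0.09.

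Beside the members lay 74 neighbouring protein-coding genes, of which 48 were tested, 11 called higher and 2 lower by limma. Over all tested genes 9.42% were called higher and 7.07% lower, and the difference of the neighbours from these shares was not tested. Mpc2, Me1 and Dld, named below, were all called higher and do not stand for the 48 tested neighbours. Upstream of Adcy10 by 3.97 kilobases on the same strand lies Mpc2, a subunit of the mitochondrial pyruvate carrier, which had 3514, 3156 and 3996 counts in the floxed and 9332, 11704 and 9153 in H3atKO pools. Mpc2 was higher by 2.62 (adjusted p = 0.00793, limma voom). Such a same-strand upstream neighbour within 10 kilobases was found for 6 of the 37 genes, and reads that run on from it cannot be told apart from the member's own in gene counts. For Prss35 the upstream neighbour on the other strand is Me1, 47.7 kilobases away, and for Slc26a3 it is Dld, a dehydrogenase subunit, which was higher by 2.86 (adjusted p = 0.00800, limma voom).

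**Figure D5:**
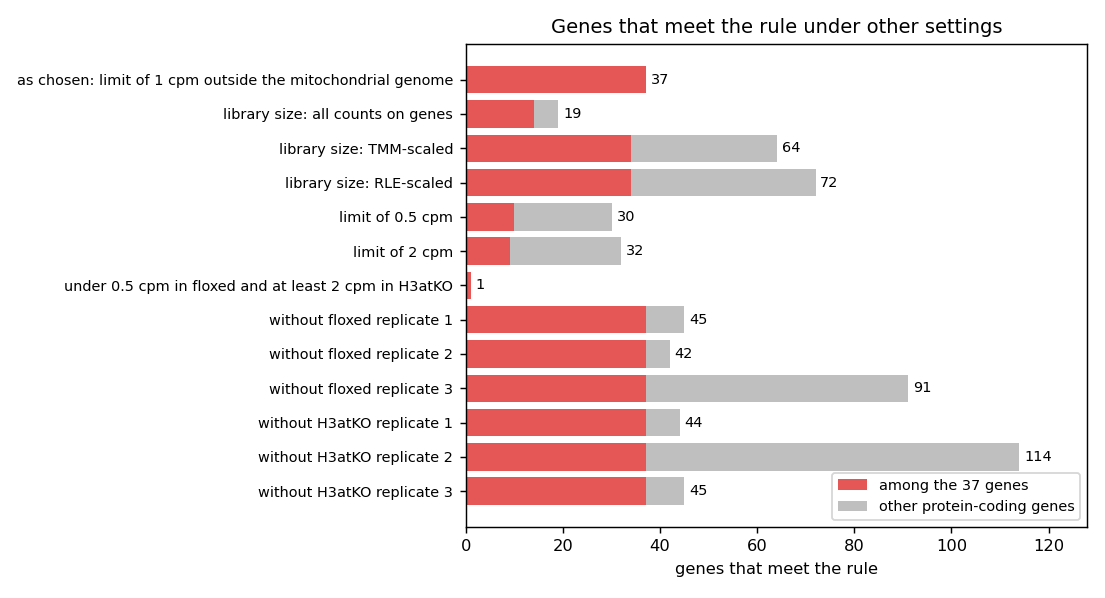
Number of protein-coding genes that meet the rule (bars, outside B and T cell genes) under other library sizes, other limits and without each pool in turn, with the part among the 37 genes in red and other genes in grey. The bar is shortest at 1 gene for the wider gap between the limits and longest at 114 genes without H3atKO replicate 2.

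Which genes met the rule depended on the scale. With all gene counts as library size, the mitochondrial genome included, 19 genes met it, 14 of them among the 37 (73.7% of the 19 and 37.8% of the 37). With TMM-scaled library sizes 64 met it, 34 of them among the 37 (53.1% of the 64 and 91.9% of the 37). At a limit of 0.5 cpm 30 genes met it, 10 of them among the 37, and at 2 cpm 32 genes, 9 of them among the 37.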

How the data were processed

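The authors trimmed single reads with cutadapt 1.3, aligned them to GRCm38 with STAR 2.4.2a and counted reads per Ensembl gene with HTSeq 0.6.1; the deposited values are raw counts for 46517 genes, not normalized, with 5 tallies of reads given to no gene, which were kept out of library sizes. The strand setting of the counting was not given in the sources used here. Symbols and positions came from GENCODE M21 (46005 of 46517 identifiers matched) and promoters from RefSeq (GRCm38.p6, also matched by synonym).

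The level rule was applied to cpm outside the mitochondrial genome. Following the study's methods, genes with at least 1 cpm of all counts in at least 1 sample (14967) were scaled with TMM (edgeR 4.0.16) and compared by limma 3.58.1 voom in R 4.3.3, with Benjamini-Hochberg adjustment. Alternatives were edgeR's quasi-likelihood test, DESeq2 1.42.0, other scalings and filters, a GC correction (loess, span 0.3), the replicate block and each pool left out. Deviations of same-numbered pools from their group means correlated at 0.518, 0.386 and 0.265. The replicate block therefore assumes that the numbers pair the pools. This pairing was taken from the same data and was compared with no other pairing. The labels say nothing of a shared litter or day, so counts with the block rest on an assumption and not on the design.

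The members, gene lists and motifs were chosen with earlier results of these data known. Members named with values were the 24 with the highest lowest H3atKO pool, those on a gene list, those at the edges of the rule, and relatives past the test with the largest change, at most 3 per family. Other members and relatives of the main families were named after their values were seen. No column of another sample was present. The values of 1 member are not reported here.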

Additional observations from a re-analysis of the deposited data

How the results depend on the processing

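The rule was met by 37 genes, and by 19 with all gene counts as library size, 64 with TMM-scaled and 72 with RLE-scaled library sizes, and 1 with limits of 0.5 and 2 cpm. Leaving out 1 pool gave 42 to 114 genes, most without H3atKO replicate 2 and, at 91, without floxed replicate 3.

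With the replicate block, for pools paired by number, limma called 3717 genes higher and 4290 lower (1410 and 1058 without it), and 33 relatives higher and 34 lower; with the block and the GC correction 17 relatives were higher. All genes called higher numbered 2935 with DESeq2, 306 with library sizes alone and 830 with the GC correction. Those called lower numbered 2749 with edgeR, 3465 with DESeq2, 5667 with library sizes alone, 1864 when every sample needed 10 counts, and 458 with the GC correction. The filter of 10 counts left 11 members called, since it removes genes low in floxed. Relatives called higher numbered 13 with edgeR, 26 with DESeq2 and 1 with library sizes alone, and those lower 24, 28 and 41 in the same order and 2 with the GC correction. The cause of the other shifts was not tested.

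Leaving out 1 pool gave 0 to 32 members, 1 to 2729 genes higher, 0 to 3828 lower, 0 to 18 relatives higher and 0 to 32 lower, each fewest without floxed replicate 2 (for relatives also without H3atKO replicate 3) and most without floxed replicate 3. Without floxed replicate 2, limma found 35 members, 2407 lower genes, and 14 higher and 20 lower relatives at an unadjusted p under 0.05.

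The log2 fold change changed sign for Akap8l (0.46 with the GC correction, 0.53 with block and GC), Dcaf13 (-0.042 and -0.057) and Samd1 (1.2 and 1.51). Of 546 refits of single members, 354 kept their call and direction, 145 lost the call, 47 gained it and 0 changed direction, as the choice of members favours. Depth limits these genes: 1 cpm is 15.4 to 32.8 reads, and 10 members were under 1.2 cpm in an H3atKO pool.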

Other observations

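Outside the protein-coding genes, 28 genes of other classes met the same limits of 1 cpm, and those named here were chosen after their values were seen. The processed pseudogene Gm11868 had 0, 1 and 0 counts in floxed pools and 174, 139 and 151 in H3atKO pools. The transcribed pseudogene Gm9696 had 2, 3 and 0 counts, against 215, 272 and 127. The host gene of the microRNA miR-155, Mir155hg, had 27, 23 and 20 counts in floxed pools, against 145, 29 and 143. It was lowest in H3atKO pool 2, as the sums of the B and T cell list and of other lists were. The class held 6 lincRNAs, 5 antisense genes, 5 processed pseudogenes and 3 mitochondrial tRNAs.

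With TMM-scaled library sizes, 30 protein-coding genes met the rule that were not among the 37. Orm2, an acute phase protein, had 28, 12 and 27 counts in floxed pools, against 214, 86 and 52 in H3atKO pools, and Pde1c, a calmodulin-dependent phosphodiesterase, 35, 10 and 18, against 75, 60 and 50.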
